A study of Mus musculus with 12 samples.

Results

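The genes described here are 10 immediate early genes of mouse embryonic stem cells: the zinc finger factors Egr1 and Egr2, the AP-1 subunits Fos, Fosb, Fosl1, Jun and Junb, the short-lived response proteins Ier2 and Ier3, and the growth regulator Myc. They were taken by symbol from a table of read counts for 22416 genes, and all 10 were found. The count filter kept 13229 genes for testing, among them 8 of the 10. Egr2 and Fosb did not pass the filter and are given by their counts. The symbols were chosen as a named group, with earlier results of these data known. One of those results was that Egr1 differs widely between the WT libraries in LIF, so the values of that difference are given as a description.

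RNA was sequenced from wild-type cells (WT, eIF2α+/+) and from knock-in cells (KI, eIF2α A/A), whose eIF2α has alanine in place of the serine that stress kinases phosphorylate. Both genotypes were kept for 6 days in serum-free medium with knockout serum replacement and either leukaemia inhibitory factor alone (LIF) or LIF with PD0325901 and CHIR99021, inhibitors of the kinases MEK and GSK3 (LIF/2i). Each of the 4 groups had 3 libraries. All cells were washed in ice-cold buffer with the translation inhibitor cycloheximide before lysis, and RNA came from the supernatant of the spun lysate. The labels name neither the strain nor the number of clones, so the knock-in allele cannot be told apart from anything else that differs between the lines. The allele changes a codon and cannot be read from gene counts.

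Immediate early genes are the first genes a cell transcribes after a growth factor, stress or serum signal, and they need no new protein to be switched on. In the best known route, the kinase ERK, which MEK activates, phosphorylates ELK1 and related factors that sit with serum response factor (SRF) on CArG boxes, while CREB and related factors act through cAMP response elements (CREs). The messenger RNAs are short-lived, and most of the encoded proteins are transcription factors that act on the next wave of genes. In mouse embryonic stem cells LIF/2i holds ERK signalling low, and Myc is also known as a target of the LIF pathway.

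Libraries held 2307219 to 9713857 counts, so 3 counts, taken as the floor of a library, corresponded to 0.312 to 1.27 CPM (counts per 1000000 counts of a library, scaled by edgeR's TMM factors). Between WT LIF replicates 1 and 3 the difference was within sampling noise (chi-square per degree of freedom 0.858 over 12373 genes), and they may be the same library deposited under 2 names. Their mean was therefore used as 1 sample, so that 11 samples entered the tests and n = 2 for WT cells in LIF. No label names separate cultures, and p-values thus reflect only how far these libraries scatter, which may be technical. The 8 pluripotency markers, among them Pou5f1 and Nanog, summed to at least 2130 CPM in every library, and none was at 0 throughout. Tests were edgeR's quasi-likelihood test with Benjamini-Hochberg adjustment over all tested genes, called at 0.05, and fold changes are on the log2 scale with standard errors (SE).

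Promoter sequence from RefSeq (GRCm38.p6) was matched for 6 of the 10 genes, Egr2, Fos, Fosb, Ier3, Jun and Junb. The 250 bases before each start site were searched on both strands for the CArG box, the CRE (TGACGTCA), the CRE half-site that it contains (TGACG), the AP-1 site (TGANTCA), the EGR site (GCGNGGGCG) and the TATA box (TATAAA). The windows below show every match, in capitals, since CArG boxes and CREs are the elements of the signal route described above and the other motifs were searched beside them. CGTCA is the half-site read from the other strand. Egr2 had a CArG box 72 to 63 bases before its start site at position 67537566 of chromosome 10 and another at the same distance before that at 67537869. Among 32851 promoter windows of the same length, 1.47% held a CArG box.
Egr2 CArG box (chr10:67537484-67537513, plus strand): cggatcttctCCTTTTTTGGaaagtctcgg
Egr2 CArG box (chr10:67537787-67537816, plus strand): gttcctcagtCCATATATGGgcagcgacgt
Egr2 CRE half-site (chr10:67537746-67537775, plus strand): aaattggccatgTGACGgcaaaagctgcca
Egr2 CRE half-site (chr10:67537802-67537831, plus strand): tatgggcagcgaCGTCAcgggtattgaaga
Fos CRE half-site (chr12:85473749-85473778, plus strand): ggggcgtagagtTGACGacagagcgcccgc
Fos CRE half-site (chr12:85473812-85473841, plus strand): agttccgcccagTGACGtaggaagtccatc
Fos TATA box (chr12:85473845-85473874, plus strand): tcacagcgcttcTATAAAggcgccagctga
Fosb CRE half-site (chr7:19310088-19310117, minus strand): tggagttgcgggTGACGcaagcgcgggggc
Fosb EGR site (chr7:19310076-19310105, minus strand): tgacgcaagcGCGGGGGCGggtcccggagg
Junb CRE half-site (chr8:84978837-84978866, minus strand): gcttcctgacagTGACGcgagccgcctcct

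The Fos half-sites began 129 and 66 bases before the start site and the Junb half-site 106 bases before it. A CRE half-site stood in 17.8% of all windows, an EGR site in 4.7% and a TATA box in 12.4%. The full CRE (1.55% of windows) and the AP-1 site (6.75%) had no match in any of the 6 promoters, and Jun and Ier3 held none of the 6 motifs. Only Egr2 had a CArG box, and the Fos window held none. Sequence outside the windows was not searched. A missing match, as for the CArG box of Fos, therefore does not show that the gene lacks the element. These matches describe letters in a window and were not tested as binding sites.

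Levels of different genes were compared as CPM per kilobase of coding sequence. Ier2, a nuclear response protein, was the highest in every group, with means of 93 ± 13.7 (SD, n = 3) in WT cells in LIF/2i, 133 ± 26.3 (n = 2) in WT cells in LIF, 143 ± 23.7 (n = 3) in KI cells in LIF/2i and 147 ± 17.6 (n = 3) in KI cells in LIF. Ranked per kilobase in each group, Ier2 stood above 92.4% to 96.4% of the 22116 genes with a known coding length. Its samples lay wholly above those of the next gene in both KI groups. They overlapped with Ier3 in WT cells in LIF/2i and with Egr1 in WT cells in LIF.

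Below Ier2 the order changed with medium and genotype. WT cells in LIF/2i had Ier3 at 35.3 ± 43.5, Junb at 9.48 ± 2.83, Jun at 4.76 ± 2.25 and Myc at 2.92 ± 1.87 CPM per kilobase, and no neighbours in the order of all 10 genes were separated in every sample. KI cells in LIF/2i had Junb at 23 ± 8.82, then Jun, Myc and Ier3 between 9.46 and 9.71, which could not be ordered beyond their spread. WT cells in LIF had Egr1 second at 68.1 ± 88.9 (n = 2), an SD larger than the mean, followed by Junb, Myc, Ier3 and Jun between 22.1 and 26.9. KI cells in LIF had Myc second at 37 ± 11.4, then Junb, Ier3 and Jun between 15.7 and 23.5, and Egr1 at 5.61 ± 2.17. Egr2, Fosb and Fosl1 were at most 1.81 CPM per kilobase in any group mean.

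**Figure D1:**
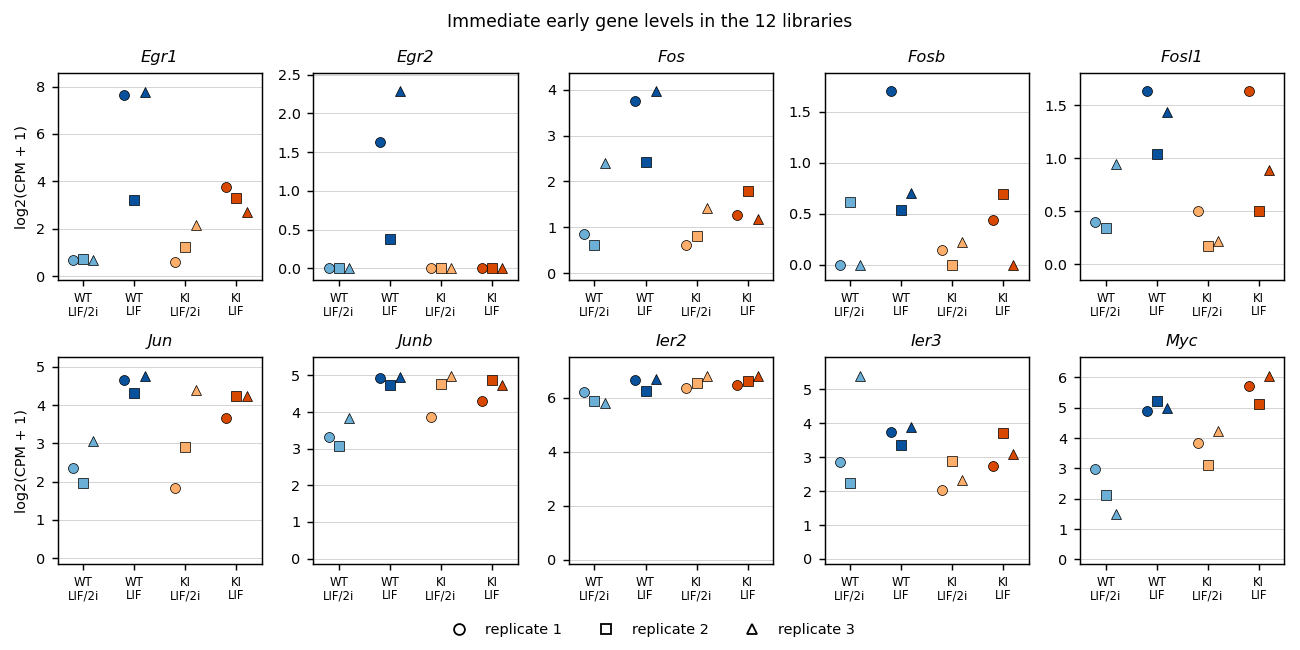
Levels of the 10 immediate early genes as log2(CPM + 1) in each of the 12 libraries, in 4 groups by genotype and medium, with the marker shape giving the replicate number. Egr1, Egr2 and Fos are highest in replicates 1 and 3 of WT cells in LIF, which were counted as 1 sample in the tests, and Myc is higher in LIF than in LIF/2i in both genotypes.

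Without the inhibitors, WT cells had more RNA of Egr1, Jun, Junb and Myc. Of the 8 tested genes, these 4 rose from LIF/2i to LIF in WT cells and none fell, where 6.3% of all tested genes rose, 6.65% fell and 13% changed in either direction. The median change of the 8 was 2.00 on the log2 scale against 0.008 over all tested genes. In 7 of the 8 every LIF sample lay above every LIF/2i sample, which held for 24.2% of all tested genes. Ier3 was the exception. Egr1 and Fosl1 passed the count filter only by their levels in LIF, so their place above LIF/2i is not independent of the filter. Cell type markers moved with the medium. The summed pluripotency markers lay between 3330 and 3530 CPM in WT LIF/2i and between 2130 and 2330 CPM in WT LIF libraries. The 11 primitive endoderm markers lay between 182 and 386 CPM in LIF/2i and between 669 and 873 CPM in LIF, and the 8 trophectoderm markers between 132 and 157 and between 339 and 425 CPM. The 10 fibroblast markers lay between 6.93 and 10 CPM in LIF/2i and between 36.7 and 493 CPM in LIF. Col1a1 (mean 2.06 to 91.2 CPM), Col1a2 (0.348 to 106) and Acta2 (2.12 to 59.8) carried most of that rise, while S100a4 went from 1.69 to 0.961 CPM. None of the markers in these lists was at 0 throughout, and their part in the changes of the immediate early genes was not tested.

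Egr1 encodes a zinc finger factor that is a direct read-out of ERK activity in many cells, and its gene lies on chromosome 18. The WT LIF/2i libraries, in the order of replicates 1, 2 and 3 used throughout, held 0.636, 0.666 and 0.613 CPM, from 2 to 5 counts each. The WT LIF libraries held 201, 8.27 and 219 CPM. Every LIF library was above every LIF/2i library, but replicate 2 was far below the other 2 LIF libraries. Egr1 rose by 7.36 ± 1.17 on the log2 scale (edgeR adjusted p = 0.00256). With replicate 2 as the lone LIF sample, assumed to vary like the other groups, the rise was 3.66 (edgeR adjusted p = 0.0223), and without replicate 2 it was 8.3 (edgeR adjusted p = 4.74e-04). Under limma-voom Egr1 was not called (5.82, adjusted p = 0.126).

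Egr2, a related factor known from nerve and hindbrain development, had no count in any LIF/2i library of either genotype. Its WT LIF libraries had 13, 2 and 25 counts, or 2.1, 0.301 and 3.89 CPM. The same 2 libraries that were high for Egr1 were thus the only ones above the floor of 3 counts. A count of 0 allowed up to 0.919 CPM in the shallowest WT LIF/2i library. Its RNA was detected in WT LIF libraries only, and the libraries above the floor were counted as 1 sample. A count of 0 in the KI LIF libraries allowed up to 1.27 CPM. The part of the CArG boxes shown above in the Egr2 level was not tested.

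Fos forms the AP-1 factor with a Jun protein and is induced through SRF and CREB sites. WT LIF/2i libraries held 0.795, 0.533 and 4.29 CPM and WT LIF libraries 12.4, 4.36 and 14.6 CPM. The groups came close, since LIF replicate 2 was just above LIF/2i replicate 3. Fos had a fold change of 2.47 ± 0.78 (edgeR adjusted p = 0.0561) and did not pass, whereas it passed under DESeq2 (2.38, adjusted p = 0.0434) and limma-voom (2.80, adjusted p = 0.0241). Fos was also called by edgeR when WT LIF/2i replicate 3 was left out (3.73, adjusted p = 0.00869) and when KI LIF/2i replicate 1 was (2.5, 0.0398).

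Fosb and Fosl1, which can replace Fos in AP-1, stayed near the floor. Fosb had 0, 4 and 0 counts in WT LIF/2i libraries and 14, 3 and 4 in WT LIF libraries. Its level in replicate 1 was thus not shared by replicate 3, although those libraries agreed over all genes. Fosl1 had 2, 2 and 3 counts in LIF/2i and 13, 7 and 11 in LIF, with a fold change of 1.73 ± 0.78 (edgeR adjusted p = 0.175). Coding exons of Fosl1 overlap those of Ccdc85b on the other strand in GENCODE M21, and how the counting treated strand is not given in the sources used here, so reads of the 2 genes cannot be told apart.

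Jun and Junb, the partners of Fos, were the AP-1 genes that rose. Jun was at 4.14, 2.93 and 7.35 CPM in WT LIF/2i and at 24.2, 18.9 and 26.3 CPM in WT LIF libraries. The change was 2.28 ± 0.65 (edgeR adjusted p = 0.0388). Junb, which restrains Jun in many settings, was at 8.91, 7.46 and 13.2 CPM in LIF/2i and at 29.2, 25.9 and 30 CPM in LIF. It rose by 1.54 ± 0.35 (edgeR adjusted p = 0.0146). Replicate 2 was the lowest of the 3 WT LIF libraries in both genes, but by far less than for Egr1. Both calls were lost without WT LIF/2i replicate 1 (Jun 2.19, edgeR adjusted p = 0.127, and Junb 1.47, 0.0631), WT LIF/2i replicate 2 (1.98, 0.128, and 1.35, 0.0607) or WT LIF replicate 2 (2.46, 0.119, and 1.62, 0.0736), and that of Jun also without KI LIF replicate 2 (2.27, 0.0535) or 3 (2.27, 0.057). They were lost as well without both agreeing WT LIF libraries (2.05, edgeR adjusted p = 0.173, and 1.44, 0.0872) and in the test against a 1.5-fold change (0.093 and 0.0567), and that of Jun with no filter on counts (2.27, 0.0604).

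Myc, the driver of ribosome production and growth, also rose in WT cells. WT LIF/2i libraries had 6.84, 3.33 and 1.84 CPM and WT LIF libraries 28.6, 36.1 and 31.1 CPM. The groups were well apart, and replicate 2 was here the highest LIF library. Myc rose by 2.98 ± 0.46 (edgeR adjusted p = 0.00228). It was called with each single library left out, with changes between 2.72 and 3.58.

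Ier2 and Ier3 did not pass. Ier2 went from 72.5, 58.3 and 55.1 CPM in WT LIF/2i to 98.9, 75.6 and 103 CPM in WT LIF libraries, a fold change of 0.52 ± 0.19 (edgeR adjusted p = 0.101). Ier3, an inhibitor of cell death, was at 6.2, 3.73 and 41.4 CPM in LIF/2i and at 12.4, 9.32 and 13.7 CPM in LIF. The third LIF/2i library was above all other libraries of the study for Ier3. With it the fold change was -0.53 ± 0.79 (edgeR adjusted p = 0.726), and without it 1.18 (edgeR adjusted p = 0.135). That library had the fewest counts of its group, 3234713, and 386 CPM summed over 11 primitive endoderm markers against 210 and 182 CPM in the other 2. The part of either in the Ier3 level was not tested.

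**Figure D2:**
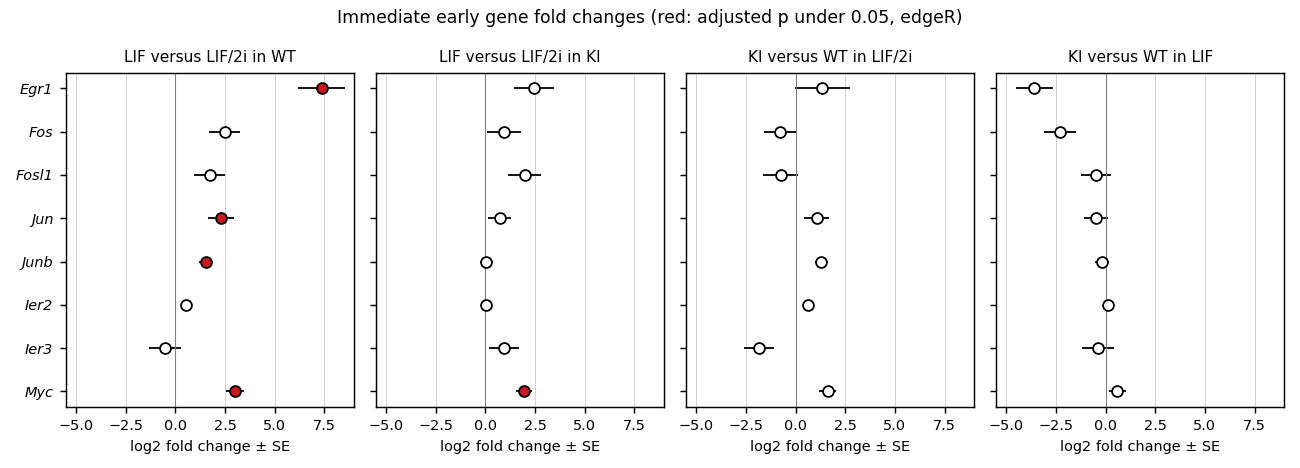
Log2 fold changes with SE of the 8 tested immediate early genes in the 4 comparisons of medium and genotype, from edgeR, with red points for adjusted p under 0.05. The 4 red points in WT cells are Egr1, Jun, Junb and Myc, the only red point in KI cells is Myc, and no gene is red between genotypes.

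In KI cells the same change of medium raised Myc. It was the 1 called gene of the 8, where 4.05% of tested genes rose, 5.02% fell and 9.07% changed in either direction. The median of the 8 was 0.93 against -0.027 over all genes, and all 8 had a fold change above 0. These 8 include Egr1 and Fosl1, which passed the count filter only by their levels in LIF. Egr1 and Myc had no overlap between the media, and 13.3% of all genes were higher in LIF in that way. Here too marker sums moved with the medium, with an overlap for trophectoderm, and their part was not tested. Not every marker followed its sum. Pou5f1 went from a mean of 977 CPM in LIF/2i to 1060 in LIF and Sox2 from 490 to 600, while Tfcp2l1 went from 686 to 129. The endoderm markers Sox17 (1.1 to 0.558), Sox7 (1.18 to 0.51) and Pdgfra (1.9 to 1.37) were lower in LIF. So were the trophectoderm markers Eomes (11.7 to 7.65), Gata3 (3.1 to 2.86) and Cdx2 (0.571 to 0.49). Pluripotency markers summed to between 3260 and 3750 CPM in KI LIF/2i and between 2510 and 2610 CPM in KI LIF, primitive endoderm markers to between 119 and 165 and between 423 and 447 CPM, trophectoderm markers to between 93.1 and 221 and between 216 and 245 CPM, and fibroblast markers to between 12.3 and 27.8 and between 129 and 198 CPM.

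Myc was at 13.2, 7.6 and 18 CPM in KI LIF/2i and at 52.1, 34.3 and 65.7 CPM in KI LIF libraries. Every library in LIF was thus above every library in LIF/2i, as in WT cells. It rose by 1.96 ± 0.39 (edgeR adjusted p = 0.0103), and the call was lost without KI LIF replicate 3 (1.73, edgeR adjusted p = 0.0537). Egr1 was at 0.52, 1.37 and 3.49 CPM in KI LIF/2i and at 12.7, 8.89 and 5.51 CPM in KI LIF, none of them near the 2 high WT libraries. Its fold change was 2.42 ± 1.01 (edgeR adjusted p = 0.165). In the KI libraries same-numbered replicates correlated across media over all tested genes, while Egr1 itself ran in opposite replicate order in the 2 media. With the number as a block in a fit of KI libraries alone, Egr1 was called as well (2.52, edgeR adjusted p = 0.0278). This made 2 called genes in place of 1. A fit of KI libraries alone without the block did not call Egr1 (2.39, edgeR adjusted p = 0.0715). Egr1 was also called without WT LIF replicate 2 (2.42, edgeR adjusted p = 0.0157) and without both agreeing WT LIF libraries (2.37, 0.0311).

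No AP-1 gene was called in KI cells. Jun was at 2.6, 6.48 and 20 CPM in KI LIF/2i libraries, and replicate 3 exceeded all KI LIF libraries (11.6, 18 and 17.8 CPM). Its fold change was 0.73 ± 0.58 (edgeR adjusted p = 0.499), and without that library it was called (1.81, edgeR adjusted p = 0.0436). Junb was at 13.5, 26.4 and 30.9 CPM in LIF/2i and at 18.6, 28.3 and 25.8 CPM in LIF, with a fold change of 0.04 ± 0.31 (edgeR adjusted p = 0.957). Fos stayed between 0.52 and 2.48 CPM in all 6 KI libraries, from 3 to 12 counts each. Fosb had at most 3 counts in any KI library, Fosl1 at most 6, and Egr2 none.

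Ier2 was at 80.9, 92.1 and 111 CPM in KI LIF/2i and 87.2, 96.4 and 109 CPM in KI LIF libraries, a fold change of 0.04 ± 0.18 (edgeR adjusted p = 0.936). Ier3 was at 3.12, 6.48 and 3.99 CPM in KI LIF/2i and at 5.63, 12.2 and 7.63 CPM in KI LIF, and the groups overlapped. The change of Ier3 was 0.93 ± 0.76 (edgeR adjusted p = 0.511).

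Averaged over both genotypes, 6 of the 8 genes were called higher in LIF and none lower, where 11.7% of all genes rose and 24% changed in either direction. The 6 include Egr1 and Fosl1, which passed the count filter only by their levels in LIF. Myc rose by 2.47 ± 0.30 (edgeR adjusted p = 1.73e-04) and Egr1 by 4.89 ± 0.78 (9.20e-04), and these 2 were called by edgeR with every single library left out. Under limma-voom Egr1 was not called (4.29, adjusted p = 0.0655), and under DESeq2 Fosl1 was not (1.93, adjusted p = 0.0544). Jun (1.5), Junb (0.79), Fosl1 (1.85) and Fos (1.70) had edgeR adjusted p between 0.026 and 0.0499. The count was 2 without WT LIF/2i replicate 1 or 2 or KI LIF replicate 3. It was 3 without WT LIF replicate 2, KI LIF/2i replicate 2 or KI LIF replicate 2, 4 without KI LIF replicate 1, 5 without WT LIF replicate 3 or KI LIF/2i replicate 1 or 3, and 7 with Ier3 added without WT LIF/2i replicate 3. Without KI LIF replicate 1, Fosl1 was under the count filter and was not tested.

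Whether the response to the medium differed with genotype was asked of the interaction. No gene of the 13229 was called by edgeR, the smallest adjusted p was 0.1345, and 792 (5.99%) had an unadjusted p under 0.05. Of the 8 immediate early genes, 2 had an unadjusted p under 0.05, and neither DESeq2 nor limma-voom called any, where they called 0.18% and 0% of all genes. Egr1 had an interaction of -4.94 ± 1.62 (edgeR adjusted p = 0.74) and Junb of -1.49 ± 0.47 (0.735). The larger number of calls in WT cells than in KI cells was therefore not shown to be a difference between the genotypes.

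Between genotypes in LIF/2i, no immediate early gene was called by edgeR, where 0.975% of all genes were higher in KI cells, 1.24% lower and 2.21% called in all. An unadjusted p under 0.05 was reached by 4 of the 8 and by 20.5% of all genes. Limma-voom called 0 of the 8 and 2.54% of all genes, and DESeq2 called 3 of the 8 and 6.93% of all genes. Those 3, Junb, Ier2 and Myc, were the genes with every KI sample above every WT sample, which held for 11.8% of all genes. Junb had 13.5, 26.4 and 30.9 CPM in KI libraries against 8.91, 7.46 and 13.2 in WT libraries, a fold change of 1.3 ± 0.33 (edgeR adjusted p = 0.061). The lowest KI library was only just above the highest WT library. Myc had a fold change of 1.63 ± 0.43 (edgeR adjusted p = 0.0729) and Ier2 of 0.62 ± 0.18 (0.0874). Without KI LIF/2i replicate 1, edgeR called Junb (1.57, adjusted p = 0.00798) and Ier2 (0.70, 0.0395). Ier3 had a fold change of -1.84 ± 0.74 (edgeR adjusted p = 0.189) and of -0.12 (0.926) without its high WT replicate 3.

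Between genotypes in LIF, 0 of the 8 were called by edgeR, DESeq2 or limma-voom, in a comparison that called 0.144% of all genes (0.0151% higher and 0.129% lower in KI cells), and 2 of the 8 had an unadjusted p under 0.05, as did 10.7% of all genes. DESeq2 called 1.69% and limma-voom 0.0832% of all genes. Egr1 was at 12.7, 8.89 and 5.51 CPM in KI libraries against 201, 8.27 and 219 CPM in WT libraries, so that WT replicate 2 lay within the KI range. The fold change was -3.58 ± 0.92 (edgeR adjusted p = 0.179). Without WT LIF replicate 2 it was -4.53 and called (edgeR adjusted p = 0.0243), and without both agreeing libraries it was 0.11 (0.992). Fos had 1.41, 2.48 and 1.27 CPM in KI against 12.4, 4.36 and 14.6 CPM in WT libraries. All KI libraries were thus below all WT libraries, also below replicate 2, with a fold change of -2.30 ± 0.79 (edgeR adjusted p = 0.317). Fos and Jun were the 2 of 8 genes with all KI samples lower, which held for 15.9% of all genes. Egr2 had 0 counts in the 3 KI libraries, which allowed up to 1.05, 0.62 and 1.27 CPM there. Myc had a fold change of 0.60 ± 0.43 (edgeR adjusted p = 0.67).

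Averaged over both media, none of the 8 was called by edgeR between genotypes, where 4.48% of all genes were, and 4 had an unadjusted p under 0.05, as did 23.2% of all genes. Myc had a fold change of 1.11 ± 0.31 (edgeR adjusted p = 0.0601) and was the 1 gene that DESeq2 called (1.12, adjusted p = 0.00656), where DESeq2 called 9.66% of all genes, while limma-voom called 0 of the 8 and 3.7% of all genes. With edgeR, Myc was called when WT LIF/2i replicate 1 was left out (1.40, adjusted p = 0.0377) and when KI LIF/2i replicate 2 was (1.25, 0.047), and Junb without KI LIF/2i replicate 1 (0.68, 0.0433).

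The difference among the WT LIF libraries was then described for each gene, with replicates 1 and 3 summed against replicate 2 and a 95% interval that covers counting error only. Replicates 1 and 3 count as 1 sample here too, so that their agreement adds no second measurement. Egr1 had 2649 counts in the 2 agreeing libraries and 55 in replicate 2, a ratio of 25.4 in CPM (19.4 to 33.8). Over all tested genes, 2.75% were more than 2-fold higher and 4.44% more than 2-fold lower in replicates 1 and 3. Fos had a ratio of 3.11 (2.09 to 4.78). The untested Egr2 had a ratio of 10 (2.59 to 85.7) and Fosb of 3.16 (0.923 to 16.8). Egr3, a near relative of Egr2 under the filter, had 8, 0 and 18 counts in WT LIF replicates 1, 2 and 3, and at most 2 in any other library.

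The other members had smaller differences between these libraries. Jun had a ratio of 1.33 (1.08 to 1.65), Junb of 1.15 (0.954 to 1.38), Ier2 of 1.34 (1.2 to 1.48), Ier3 of 1.4 (1.04 to 1.91) and Fosl1 of 1.81 (0.756 to 4.97). Myc went the other way at 0.828 (0.702 to 0.978). The gap thus held for the EGR genes and Fos. The interval of Fosb covered equal levels, and Fosl1 rests on 7 counts in replicate 2. Jun, Ier2 and Ier3 were higher in replicates 1 and 3 with intervals above equal levels, but at ratios of at most 1.4. The interval of Junb covered equal levels.

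A list of other primary response genes gave ratios on both sides. Of 45 tested genes of that kind, 1 was more than 2-fold higher in replicates 1 and 3, the matrix protein gene Ccn1, with 223 against 74 CPM, and 5 were more than 2-fold lower, Fosl2, Ier5, Gadd45g, Npas4 and Id1. Their median ratio was 1.05, against 0.996 over all genes. Of the ERK feedback genes Dusp4, Dusp6 and Spry4, picked with their values in view, none showed a gap of the size seen for Egr1. Dusp4 was at 21.2, 18.5 and 22.5 CPM, Dusp6 at 112, 79.2 and 115 CPM and Spry4 at 84.8, 54.4 and 80.5 CPM in replicates 1, 2 and 3. Dusp1, a phosphatase of several MAP kinases, was at 56.9, 37.9 and 54.9 CPM, below its WT LIF/2i libraries (99.6, 67 and 84.2 CPM).

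Other features of the libraries moved with this gap. Replicate 2 had 493 CPM summed over 10 fibroblast markers, against 41.2 and 36.7 CPM in replicates 1 and 3. All 10 were found and none was at 0 throughout. Most of the 493 CPM came from Col1a1 (168), Col1a2 (204) and Acta2 (106), while Lum, Dcn, Postn and Thy1 averaged at most 1.13 CPM in WT LIF. Over all 10 the sums were 6.93 to 10 CPM in WT LIF/2i, 12.3 to 27.8 in KI LIF/2i and 129 to 198 in KI LIF libraries. In LIF the libraries with low Egr1 were those with the higher sums, but high Egr1 there rests on replicates 1 and 3, counted as 1 sample. The LIF/2i libraries of both genotypes had low sums together with low Egr1 (0.52 to 3.49 CPM). In these bulk samples a change in the share of a cell type and a change in RNA per cell cannot be told apart. The 11 primitive endoderm markers summed to 686, 873 and 669 CPM. A list of heat shock and handling genes summed to 826, 824 and 821 CPM. Abundant genes such as Hsph1 (mean 365 CPM in WT LIF) make up much of that sum. Of the 10 tested genes of the list, 0 differed more than 2-fold between replicate 2 and replicates 1 and 3. The part of handling in the gap was not tested. The part of the marker genes in the Egr1, Egr2 and Fos levels was not tested.

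**Figure D3:**
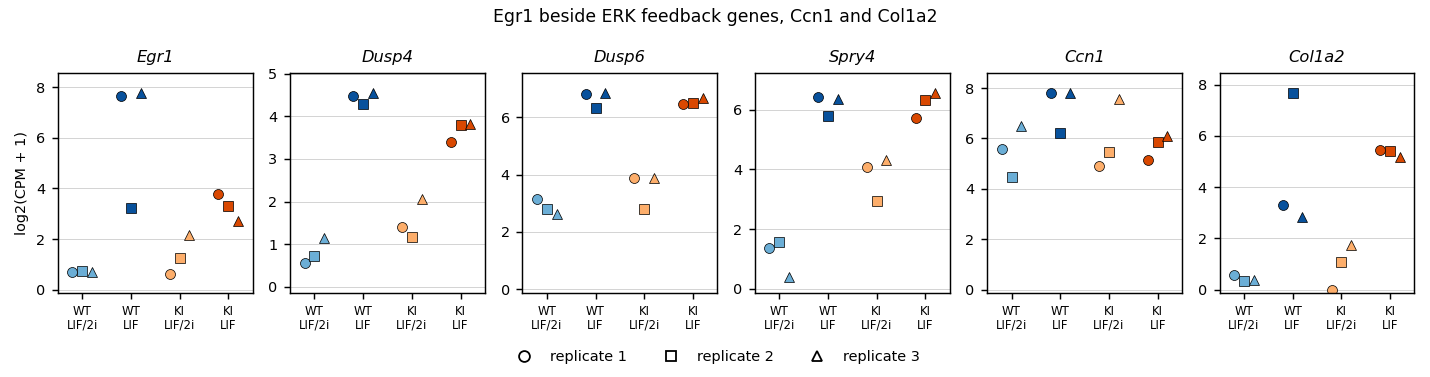
Levels as log2(CPM + 1) of Egr1, the ERK feedback genes Dusp4, Dusp6 and Spry4, the primary response gene Ccn1 and the fibroblast marker Col1a2 in the 12 libraries, with the marker shape giving the replicate number. WT LIF replicate 2 lies far below replicates 1 and 3 for Egr1, nearer to them for Dusp4, Dusp6 and Spry4, and far above them for Col1a2.

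Of the 8 tested genes, 7 varied more between samples of 1 group than the median gene did. The 7 include Egr1, whose spread was known when the genes were chosen, so this count and the median of the 8 are description only. The SD of log2(CPM + 1) around the group means was 1.3 for Egr1, which rests on the difference between the WT LIF libraries. It was 0.972 for Ier3 (above 99.4% of tested genes), 0.775 for Jun (97.3%), 0.706 for Fos (95.7%) and 0.562 for Myc (88.3%). Junb (0.42), Fosl1 (0.387) and Ier2 (0.217) were nearer to the median over all genes, 0.294, and the median of the 8 was 0.634. This SD depends on level. Against the 1000 genes nearest in mean level, it was above 98.2% for Ier3, 94.6% for Jun, 90.4% for Fos and 89.4% for Myc. It was above 75.3% for Junb, 56.1% for Ier2 and 39.3% for Fosl1. For Egr1 the SD fell to 0.549 without WT LIF replicate 2, and for Ier3 to 0.445 without WT LIF/2i replicate 3. Jun varied most in KI LIF/2i, where Ccn1 had the same order of libraries (28.9, 42.6 and 186 CPM).

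**Figure D4:**
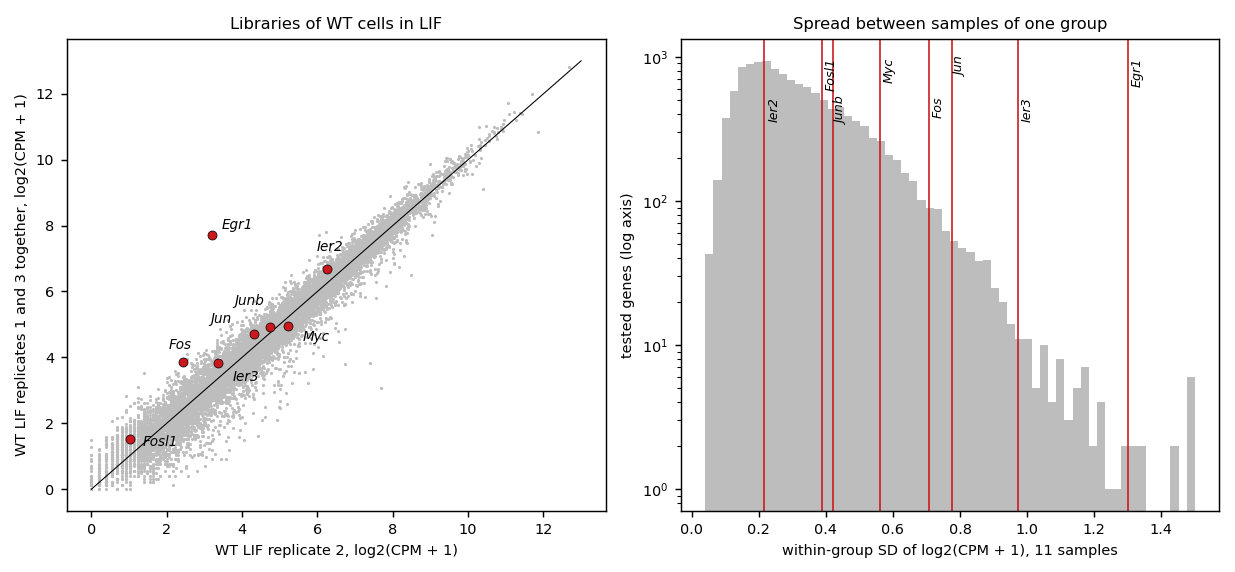
Left, each tested gene by its level in WT LIF replicate 2 and in replicates 1 and 3 together, as log2(CPM + 1), with a line of equality and the 8 tested immediate early genes in red. Right, a histogram on a log axis of the within-group SD over all tested genes, with values above 1.5 placed in the last bar and red lines at the 8 genes. Egr1 lies above the line at a ratio of 25.4, and its SD is 1.3.

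Seen by library, the genes moved together only in part. In WT LIF replicates 1, 2 and 3 the number of the 8 genes above their own mean over the libraries was 8, 7 and 8. Replicates 1 and 3 are listed apart here, although they were counted as 1 sample in the tests and may be 1 measurement. The number was 0, 0 and 3 in WT LIF/2i, 0, 2 and 4 in KI LIF/2i and 5, 7 and 6 in KI LIF. The median deviation was lowest in WT LIF/2i replicate 2 (-1.09) and highest in WT LIF replicate 1 (0.85). KI LIF/2i replicate 3 stood at 0.01, near the mean, and thus above the other 2 libraries of its group (-0.71 and -0.55).

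The genes with profiles most like that of Egr1 over the 11 samples, by the root mean square difference of centred log2 levels among 10618 genes, were Dusp4 (1.13), Nrp2 (1.17), Slc40a1 (1.17) and Dusp6 (1.23). The profile of Egr1 itself varied by 2.02 around its mean, so these differences were large. Dusp4 and Dusp6 encode phosphatases that switch off ERK. For Myc the nearest were Slc39a14 (0.351), Mest (0.432), Sfrp2 (0.473) and Gng3 (0.512), against a variation of Myc of 1.43. Slc39a14, a metal ion transporter gene, averaged 5.04 CPM in WT LIF/2i, 51.4 in WT LIF, 21.4 in KI LIF/2i and 90.4 in KI LIF. It thus had the same order of the 4 groups as Myc.

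The wider set of primary response genes went in both directions. Of the 45 tested genes, 8 rose and 6 fell in LIF in WT cells, with a median of 0.14, and 1 rose and 6 fell in KI cells. Over all tested genes, 6.3% rose and 6.65% fell in WT cells, and 4.05% rose and 5.02% fell in KI cells. Plk3, a stress-induced kinase, rose in WT (1.68 ± 0.30, edgeR adjusted p = 0.00494) and in KI cells (1.25 ± 0.28, 0.0167). Sgk1, a kinase induced by serum and glucocorticoid, fell by 1.21 in WT cells (edgeR adjusted p = 0.00518) and by 1.70 in KI cells (6.43e-04). Klf2, a factor of the naive state, fell by 1.46 (edgeR adjusted p = 0.00153) and by 0.94 (0.00755), and Klf10 fell in WT cells by 1.34 (0.00435). Gadd45b, a stress response gene, fell in KI cells by 1.53 (edgeR adjusted p = 0.0168). Dusp1 fell by 0.82 (edgeR adjusted p = 0.0378) and by 0.83 (0.0307). Fosl2 rose in WT cells by 3.05 ± 0.75 (edgeR adjusted p = 0.0202), while Atf3 (1.87 ± 0.88, 0.192), Btg2 (0.15 ± 0.48, 0.889) and Zfp36 (1.06 ± 0.46, 0.157) did not pass. Between genotypes, 1 of the 45 was called in LIF/2i, where 2.21% of all tested genes were, and 0 in LIF, where 0.144% were. The called gene was the survival gene Mcl1, lower in KI cells by 0.79 (edgeR adjusted p = 0.0326). Maff was lower in KI cells when averaged over media (-1.51 ± 0.37, edgeR adjusted p = 0.0415), where 4.48% of all tested genes were called.

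Genes that act upstream were counted by list, beside 13% of all tested genes called between media in WT cells and 9.07% in KI cells. Of 13 tested genes of the SRF and ternary complex machinery, none was called in WT cells. Srf was at 52.2 CPM in WT LIF/2i and 81.9 CPM in WT LIF, a change of 0.65 ± 0.22 (edgeR adjusted p = 0.071), and Elk1 had -0.24 ± 0.19 (0.484). Elk3, a ternary complex factor that can repress, was the 1 called gene of the list in KI cells, where it rose by 1.21 ± 0.27 (edgeR adjusted p = 0.0167). It was lower in KI than in WT cells in LIF/2i by -1.16 ± 0.27 (edgeR adjusted p = 0.0467). Of 22 MAP kinase cascade genes, 1 rose and 1 fell in WT cells, Mapkapk2 by 0.77 ± 0.20 (edgeR adjusted p = 0.0276) and Map2k1, which encodes a MEK, by -0.63 ± 0.17 (0.0312), and 0 were called in KI cells.

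Among 10 AP-1 partners, Fosl2 rose and Atf7 fell (-0.77 ± 0.21, edgeR adjusted p = 0.0281) in WT cells, and none was called in KI cells. Jund, the AP-1 subunit that is made without induction, was at 220 CPM in WT LIF/2i and 242 CPM in WT LIF, a change of 0.13 ± 0.35 (edgeR adjusted p = 0.86).

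Of 15 genes of the MYC network, Mlxip rose in WT cells by 0.77 ± 0.18 (edgeR adjusted p = 0.0158). In KI cells Mycn rose by 0.79 ± 0.19 (edgeR adjusted p = 0.0252) and Mnt, which opposes MYC, changed by -0.65 ± 0.18 (0.0453). Mycn had 121, 162, 124 and 214 CPM in WT LIF/2i, WT LIF, KI LIF/2i and KI LIF. Max, the partner of MYC, had 0.42 ± 0.21 (edgeR adjusted p = 0.214) in WT and 0.03 ± 0.19 (0.955) in KI cells. Of 16 growth genes bound by MYC, Odc1, the first enzyme of polyamine synthesis, rose in WT cells by 1.19 ± 0.24 (edgeR adjusted p = 0.00824), and none was called in KI cells. Their median was 0.15 in WT and -0.004 in KI cells.

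Stress and decay genes were counted last. Of 10 heat shock genes, Hsph1 fell in WT cells by 0.89 (edgeR adjusted p = 0.0142) and in KI cells by 0.65 (0.0403). Of 10 genes that act in the decay of AU-rich messenger RNAs, Zfp36l1 rose in WT cells by 1.47 ± 0.33 (edgeR adjusted p = 0.0133), and none was called in KI cells. Spry4, a feedback inhibitor of ERK signalling, rose in LIF by 5.53 ± 0.52 in WT (edgeR adjusted p = 2.26e-04) and by 2.42 ± 0.40 in KI cells (0.00341), and was higher in KI than in WT cells in LIF/2i by 3.23 ± 0.51 (0.0102). Ccnd1, the cyclin of early G1 and a known AP-1 target, was higher in KI cells by 2.59 ± 0.32 in LIF/2i (edgeR adjusted p = 0.00333) and by 2.93 ± 0.38 in LIF (0.0163), while the medium moved it by -0.12 ± 0.37 in WT cells (0.881).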

How the data were processed

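RNA-seq libraries of WT and eIF2α A/A mouse embryonic stem cells in LIF/2i or LIF were analysed, 12 in all. The authors deposited raw counts per gene in 1 table, and per the file headers each count is over the coding sequence of a single transcript, so untranslated regions do not contribute. The tools in the submitters' processing notes are UMI-tools 1.0.1, Bowtie 1.3.0 and cutadapt 3.4, with no role given. Build, annotation, counting tool, strand and handling of multiply matching reads were not given in the sources used, so genes that share sequence with a copy or overlap another gene are uncertain. Coordinates and coding lengths come from GENCODE M21 (GRCm38), where 22116 of 22416 transcripts had a coding length.

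A chi-square test compared libraries of each group over genes with at least 20 counts, and the agreeing pair was replaced by its mean. Genes passing filterByExpr (minimum count 10) were scaled by TMM and fitted with edgeR 4.0.16 (glmQLFit, robust, 1 mean per group over all 11 samples, R 4.3.3), with two-sided quasi-likelihood tests adjusted by Benjamini-Hochberg over all tested genes. SE values come from the F statistic. Levels are TMM-scaled CPM, and spreads use log2(CPM + 1). The test was checked on simulated counts with the same spread for every gene and independent samples. That check does not cover genes as variable as Egr1, Fos, Jun and Ier3. Intervals of ratios are 95% and cover counting error only.

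The 10 genes and all lists were chosen with earlier results of these data known. Named besides the members were up to 4 called genes per list and comparison by smallest p, a panel (Srf, Elk1, Egr3, Jund, Fosl2, Atf3, Mycn, Max, Dusp1, Btg2, Zfp36, Spry4, Ccnd1), and the 4 genes of at least 5 CPM most like Egr1 and Myc. Other genes, such as Ccn1 and those differing between the WT LIF libraries, were picked with their values in view. The lists were other primary response genes, SRF and ternary complex machinery, MAP kinase cascade, AP-1 partners, MYC network, MYC-bound growth genes, heat shock and handling genes, AU-rich decay genes and cell type markers. Trophectoderm, neuroectoderm and mesendoderm markers summed to 93.1 to 425, 35.3 to 181 and 10.6 to 27.8 CPM in the libraries.

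Replicate numbers recur across groups. In same-numbered libraries the deviations from group means correlated across media in KI cells (0.524, 0.405 and 0.245 for replicates 1, 2 and 3). This pairs the KI libraries by the data alone. It does so weakly for replicate 3, since LIF/2i replicate 2 with LIF replicate 3 gave 0.233. In the other comparisons at least 1 same-numbered pair was under 0.1. Alternatives were DESeq2 1.42.0, limma-voom (limma 3.58.1), other scalings and filters, only the groups compared, a test against a 1.5-fold change, a replicate block, 12 libraries and each library left out. A fit without both agreeing WT LIF libraries and a replicate block in KI libraries alone were added after seeing the data.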

Additional observations from a re-analysis of the deposited data

How the results depend on the processing

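Of the counts of called immediate early genes, that of LIF versus LIF/2i in WT cells went from 4 to 2 in the test against a 1.5-fold change and when both agreeing WT LIF libraries were left out, and to between 2 and 5 with 1 library left out. Averaged over genotypes it went from 6 to 2 under the same 2 settings and to between 2 and 7 with 1 library left out. In KI cells it went from 1 to 2 without both agreeing libraries and to between 0 and 2 with 1 library left out. KI versus WT in LIF/2i went from 0 to 3 with DESeq2, to 1 with no filter and to 2 with 12 libraries, and to between 0 and 2 with 1 library left out. KI versus WT in LIF went from 0 to between 0 and 1 with 1 library left out, and averaged over media it went from 0 to 1 with DESeq2 and with 12 libraries and to between 0 and 1 with 1 library left out. The interaction had 0 calls in all settings. With library totals alone in place of TMM, 2 of the places in the level orders of the 4 groups changed. The median spread of the 8 genes was 0.472 to 0.683 with 1 library left out. Reversed signs were all of changes that did not pass in either form: without both agreeing WT LIF libraries Egr1 had 0.11 for KI versus WT in LIF and 0.75 averaged over media, and Ier3 had 0.50 for LIF versus LIF/2i in WT cells with limma-voom. With 1 library left out, the range was -1.32 to 0.50 for Fos and -0.02 to 1.51 for Jun in KI versus WT in LIF/2i, -0.84 to 0.01 for Fosl1 and -0.05 to 0.22 for Ier2 in KI versus WT in LIF, and -0.26 to 0.51 for Jun in KI versus WT averaged over media. It was -1.06 to 1.18 for Ier3 in the medium comparison in WT cells, -0.24 to 0.29 for Junb and -0.07 to 0.17 for Ier2 in that in KI cells, -0.06 to 1.06 for Ier3 averaged over genotypes, and -0.29 to 0.94 for Fosl1 and -0.26 to 1.99 for Ier3 in the interaction. The cause of these shifts was not tested. Apart from them, 1259 of 1362 single-gene values under an alternative kept their direction and their side of the threshold. Genes near 3 counts, such as Egr2, Fosb and Fosl1, are limited by depth. The fold change ranges of Fosl1 rest on 11 fits, since it was under the count filter without KI LIF replicate 1.

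In the fit of 12 libraries with a replicate block, 2 immediate early genes were called for KI versus WT in LIF/2i, 1 for KI versus WT averaged over media, 6 for LIF versus LIF/2i in WT cells and 1 in KI cells, and the block in KI libraries alone gave 2 there. The counts with the block over 12 libraries were those of the 12 libraries without a block in these 4 comparisons.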
